A study of Mus musculus with 45 samples.

Results

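The dorsal neural tube regulators are 9 genes of transcription factors, namely Pax3, Pax7, Msx1, Msx2, Msx3, Zic1, Zic2, Zic5 and Lmx1a. They were found by symbol among the 54532 genes of the count table, each as exactly 1 row, and all 9 are reported below in all 45 libraries. The RNA came from organoids of R1 cells, a wild-type mouse embryonic stem cell line, grown clonally in Matrigel in N2B27, a serum-free medium. At day 2 fresh medium was given, either alone (untreated) or with all-trans retinoic acid (RA) at 250 nM. Organoids were collected at day 2 and then 8 h, 18 h and 30 h later, and every 12 h from there to 78 h. The 15 cell populations (day 2, 7 untreated and 7 RA-treated) had 3 biological replicates each, all of the same cell line, so that the spread between libraries is that of cultures and not of animals. The treatment protocol in the sample labels has 250 µM and lists 68 and 80 h, whereas the study's text and the sample titles have 66 and 78 h and the study's text has 250 nM, which are used here. Each library holds the RNA of whole organoids, in which fewer cells of a type and less RNA per cell cannot be told apart.

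In the vertebrate neural tube, BMP and Wnt proteins from the surface ectoderm and the roof plate pattern the dorsal side, while Shh from the floor plate patterns the ventral side. Pax3 and Pax7 are paired-box factors of dorsal progenitors, and both are repressed ventrally by Shh. Msx1 and Msx2 are homeobox factors and known targets of BMP signalling in the roof plate and neighbouring ectoderm, while Msx3 is restricted to the dorsal neural tube. Zic1, Zic2 and Zic5 are zinc-finger factors of the dorsal neural tube, and Zic2 and Zic5 are also transcribed in the epiblast before the neural plate forms. Lmx1a is a LIM-homeobox factor that specifies the roof plate. RA is a posteriorizing signal that acts through nuclear receptors bound to DNA.

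On GRCm38, with exons from GENCODE M21, Pax3 (ENSMUSG00000004872) lies at chr1:78101267-78197134 and Lmx1a (ENSMUSG00000026686) at chr1:167689237-167848741. Pax7 (ENSMUSG00000028736) lies at chr4:139737062-139833528, Msx1 (ENSMUSG00000048450) at chr5:37820485-37824583 and Msx2 (ENSMUSG00000021469) at chr13:53466884-53473074. Msx3 (ENSMUSG00000025469) lies at chr7:140046157-140049089 and Zic1 (ENSMUSG00000032368) at chr9:91358058-91365810. Zic5 (ENSMUSG00000041703, chr14:122456795-122465677, minus strand) and Zic2 (ENSMUSG00000061524, chr14:122475435-122479852, plus strand) are neighbours transcribed away from each other, with 9758 bases between their starts. Only Zic1 shares exon sequence with another gene, 60 bases with Zic4 on the opposite strand, which had 0 to 370 counts per library. The strand setting of the counting and its treatment of reads that match several paralogs are not given in the sources used here, so reads could be shared between Zic1 and Zic4 or within the families.

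RefSeq promoter windows (GRCm38.p6) were at hand for 7 of the 9 genes. The 250 bases before the RefSeq start were searched on both strands for short motifs of the pathways named above. For Pax7, Msx2 and Lmx1a these bases lie inside the GENCODE span of the gene, past its annotated start. Sequence before that start was not searched for Msx2, Pax7 and Lmx1a. The windows of 4 genes are shown because their genes took different courses with RA: Msx1 and Msx3 of the Msx family, and Zic1 and Zic5, which moved in opposite directions. All are on the minus strand and run 5′ to 3′ towards the start, without bases that lie in annotated exons, and capitals mark the motifs found.
Msx1, chr5:37824586-37824835: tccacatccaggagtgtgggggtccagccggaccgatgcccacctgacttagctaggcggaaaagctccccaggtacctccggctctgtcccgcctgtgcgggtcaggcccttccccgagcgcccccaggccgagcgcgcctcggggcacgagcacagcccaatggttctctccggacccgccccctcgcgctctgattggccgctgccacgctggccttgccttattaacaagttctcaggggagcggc
Msx3, chr7:140049090-140049338: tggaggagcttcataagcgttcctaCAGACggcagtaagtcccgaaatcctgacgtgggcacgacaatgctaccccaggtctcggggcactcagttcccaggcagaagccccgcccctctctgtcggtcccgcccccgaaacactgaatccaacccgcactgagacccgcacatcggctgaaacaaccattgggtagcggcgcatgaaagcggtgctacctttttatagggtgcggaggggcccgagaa
Zic1, chr9:91365811-91366018: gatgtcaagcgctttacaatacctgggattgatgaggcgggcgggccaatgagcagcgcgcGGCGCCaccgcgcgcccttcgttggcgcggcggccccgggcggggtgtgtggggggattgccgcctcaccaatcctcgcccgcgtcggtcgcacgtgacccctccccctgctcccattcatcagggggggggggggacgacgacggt
Zic5, chr14:122465678-122465908: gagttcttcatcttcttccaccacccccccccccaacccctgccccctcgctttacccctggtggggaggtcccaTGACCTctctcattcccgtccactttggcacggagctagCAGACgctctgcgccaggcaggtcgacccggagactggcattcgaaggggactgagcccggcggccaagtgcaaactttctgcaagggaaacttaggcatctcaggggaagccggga

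The core hexamer of RA receptor sites, AGGTCA, was found in the Zic5 window, 175 bases before the start and as TGACCT on the minus strand, and in 14.0% of all 32851 windows. Its direct repeats AGGTCANAGGTCA, AGGTCANNAGGTCA and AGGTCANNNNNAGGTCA were in none of the 7 windows and in 0.0335%, 0.00913% and 0.00913% of all windows. The SMAD box GTCTG, a short motif of BMP and TGF-beta effectors, was in the windows of Pax7, Msx3 and Zic5 (101, 225 and 136 bases before the start) and in 42.2% of all windows. The GC-rich SMAD element GGCGCC was in the Zic1 window, 189 bases before the start, and in 9.59% of all windows. The core of Wnt-responsive TCF sites (the letters CTTTG with A or T on each side) was in none of the 7 and in 14.4% of all windows. The windows of Msx1, Msx2 and Lmx1a held none of the motifs searched. A match is a description of the letters only.

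CPM stands for the level of a gene, its counts relative to the composition-normalized size of the library, and differences are written as log2 fold changes with their standard error. Total counts per library lay between 17298632 and 39688686 (median 25923745), so that 3 counts, taken as the floor of detection, corresponded to 0.0756 to 0.173 CPM. Neural progenitor genes were present in both arms at 78 h: Sox2, a factor of pluripotent and neural cells, had 220 CPM in untreated and 235 CPM in RA-treated organoids, and Nes, a neural intermediate filament, 290 and 411 CPM, against 406 and 29.3 CPM at day 2. Cdh2, the cadherin of neuroepithelia, had 169 and 213 CPM at 78 h against 12.4 CPM at day 2. Of the 9 genes of that list, 4 were raised and 1 lowered with RA at 42 h (median log2 fold change 0.96), where 7.49% of all genes tested were raised and 4.96% lowered, and at 78 h the median was 0.33, with summed levels of 1140 to 1320 CPM without and 1330 to 1530 CPM with RA. In 6 libraries the mean of 4 Y-chromosome genes (Ddx3y, Eif2s3y, Kdm5d and Uty) was 1.22 to 3.65 CPM, against 22.9 to 89.5 CPM in the other 39. These 6 were replicate 3 of RA at 8 h, every untreated replicate of 30 h, and 2 of the RA-treated replicates of 30 h (1 and 3). By the library numbers in the sample titles, the libraries were divided here into 29 with lower and 16 with higher numbers, called the earlier and the later series. The later series holds all libraries of 66 and 78 h, RA 30 h replicates 2 and 3, 1 of the day 2 libraries and 1 of the untreated libraries at 54 h. The labels name no batch. Within the later series, the numbers of the day 2 and RA 30 h libraries form a run apart from the others, so it need not be 1 batch. The 8 h results are given with and without RA replicate 3, because of its low Y-chromosome genes. At 30 h every untreated library was in the low range, so that no comparison without all of them could be made, and each library was left out in turn. The times 18 and 42 h, where all 12 libraries were of the earlier series and of the higher range of Y-chromosome genes, carry the main account.

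**Figure D1:**
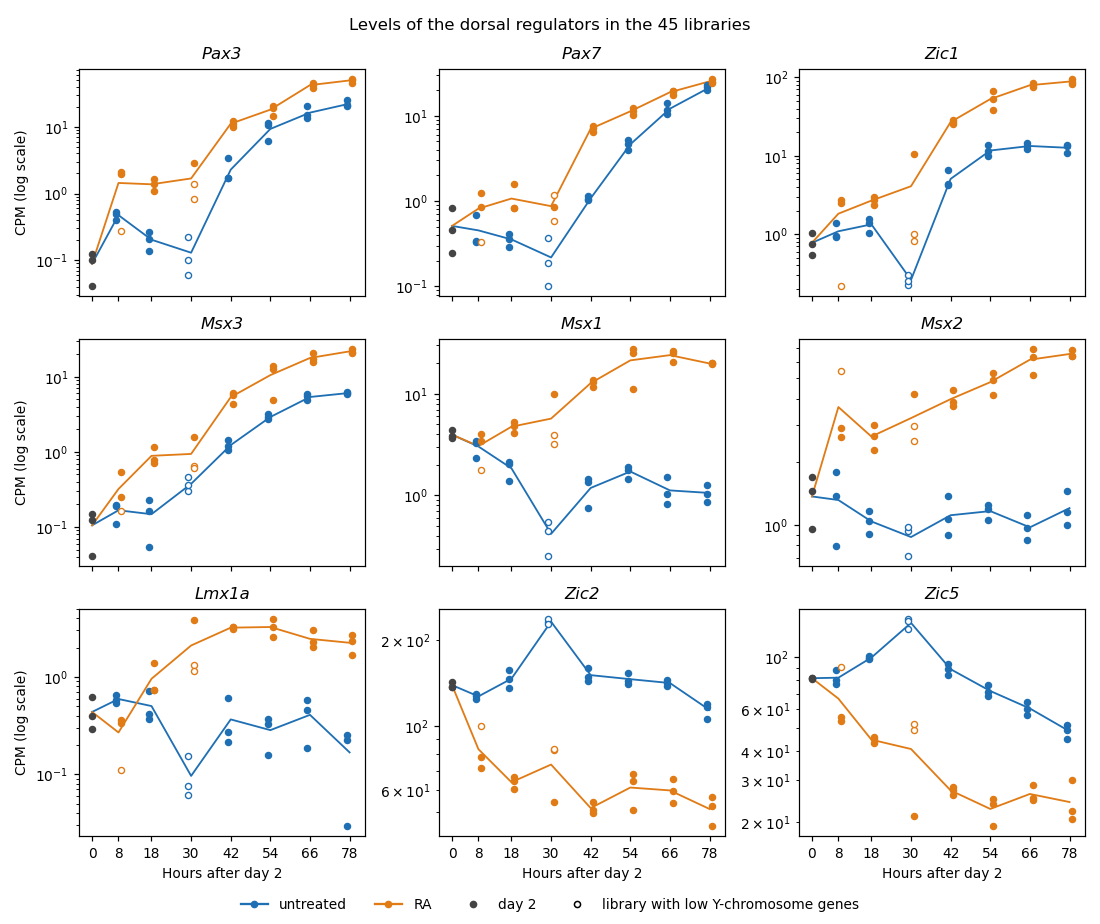
CPM of each gene in each of the 45 libraries (points, log scale) against hours after day 2, with lines through the mean of the 3 replicates of each arm and open points for the 6 libraries with low Y-chromosome genes. From 18 h on, Zic2 and Zic5 are lower and the other 7 genes higher in every RA-treated library than in every untreated library of the same time, a separation that 22.8% to 32% of all genes tested showed in a given direction.

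RA divided these genes into 7 that were higher and 2, Zic2 and Zic5, that were lower. From 18 to 78 h the RA-treated and untreated libraries of a time did not overlap for any of the 9 genes, and the direction of each gene was the same at all 6 times. Such a separation of the libraries was common, since among all genes tested those with every RA-treated library above every untreated one were 31.2% at 18 h, 25.6% at 30 h, 32% at 42 h, 32% at 54 h, 27.2% at 66 h and 27.9% at 78 h. Those with every RA-treated library below were 29.3%, 22.8%, 26.8%, 27.7%, 28.8% and 27.4% at the same times. At 18 h, 6 genes were raised and 2 lowered, where a call is an adjusted p under 0.01 in edgeR's quasi-likelihood test with a log2 fold change above 1 or below -1, and 8.17% of all genes tested were raised and 2.76% lowered. At 30 h, 4 were raised and 2 lowered (all genes, 5.98% and 2.48%), and at 42 h all 9 were called, 7 raised and 2 lowered (7.49% and 4.96%). At 54 h 6 were raised and 2 lowered (7.17% and 5.99%), at 66 h 6 and 2 (7.06% and 4.44%), and at 78 h 6 and 1 (7.66% and 4.03%). The median log2 fold change of the 9 was 1.34 at 18 h, 2.27 at 42 h and 1.85 at 78 h, against 0.02, 0.01 and 0.00 over all genes tested.

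**Figure D2:**
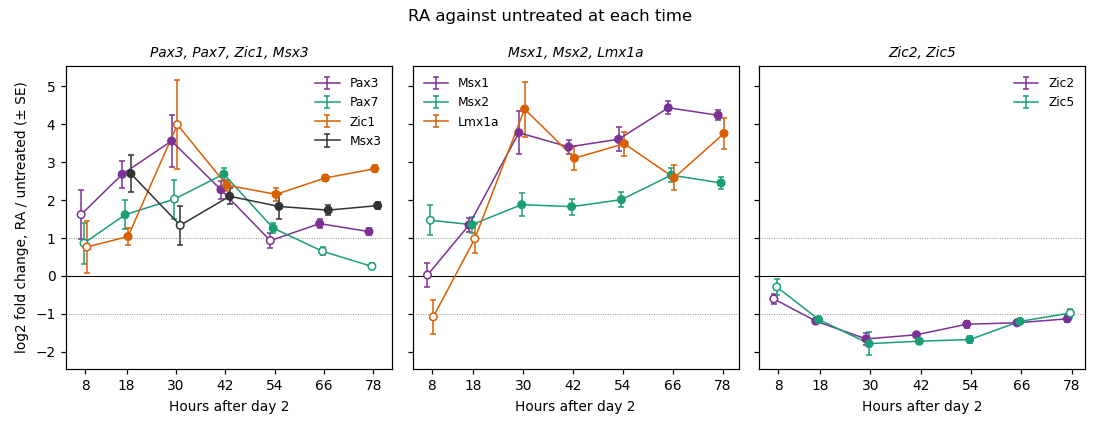
Log2 fold change of RA-treated over untreated organoids (± SE, edgeR, 6 libraries per time) against hours after day 2, with filled points for genes called raised or lowered and dotted lines at 1 and -1. The difference of Pax3 and Pax7 shrinks after 42 h to 1.17 and 0.25, that of Msx1 stays above 3 from 30 h on, and Zic2 and Zic5 stay below 0 throughout.

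Pax3 and Pax7 rose in both arms. The first step on which Pax3 was called raised was day 2 to 18 h with RA and 18 to 42 h without it. For Pax7 this first step was 18 to 42 h in both arms. Without RA, Pax3 was not tested from day 2 to 18 h, because the filter on low counts left it out. The order of the arms on that step is therefore not a tested difference. Untreated 18 h libraries had 0.135, 0.206 and 0.267 CPM of Pax3, each above every day 2 library. At day 2 the 3 libraries had 0.124, 0.0999 and 0.0415 CPM of Pax3 and 0.456, 0.25 and 0.83 CPM of Pax7, close to the floor of detection. At 42 h the untreated libraries had 1.69, 3.46 and 1.7 CPM of Pax3 and the RA-treated libraries 12.4, 11.2 and 9.79 CPM, a log2 fold change of 2.27 ± 0.24 (edgeR adjusted p = 1.95e-05). Pax7 at 42 h had 1.02, 1.06 and 1.15 CPM without RA and 7.5, 7.22 and 6.41 CPM with it, a log2 fold change of 2.69 ± 0.17 (edgeR adjusted p = 4.14e-07). For both genes every RA-treated library was above every untreated one. By 78 h Pax3 had 20.4, 20.9 and 25.5 CPM in untreated and 50.6, 52.3 and 45.9 CPM in RA-treated organoids, a difference of 1.17 ± 0.08 (edgeR adjusted p = 8.36e-07). Pax7 had 21.5, 20 and 22.9 CPM against 24.9, 27.1 and 24 CPM, a difference of 0.25 ± 0.08 that was not called (edgeR adjusted p = 0.0187), although the libraries still did not overlap. The untreated organoids thus held at 78 h a level of Pax7 within 1 log2 unit of the treated ones, whereas for Pax3 the gap remained past the threshold.

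The size of the RA effect on Pax3 and Pax7 was compared between times as an interaction over 12 libraries, called at an adjusted p under 0.01 with no minimum fold. From 42 to 78 h the effect fell by 2.45 ± 0.15 for Pax7 (edgeR adjusted p = 5.11e-08) and by 1.12 ± 0.24 for Pax3 (edgeR adjusted p = 0.00352). The call for Pax3 was lost without untreated 42 h replicate 1 or 3, RA 42 h replicate 1 or untreated 78 h replicate 3 (adjusted p up to 0.0196), and in the fit of all 45 libraries (0.0533). Over the same interval both genes rose in untreated organoids by 3.26 ± 0.20 (Pax3) and 4.28 ± 0.12 (Pax7) and in RA-treated organoids by 2.12 ± 0.09 and 1.81 ± 0.09. Since all libraries of 78 h were of the later series and all of 42 h of the earlier one, time and library series cannot be told apart in this interval. Pax3 was called raised with RA at 5 of the 7 times and Pax7 at 3. At 54 h Pax3 missed the fold threshold with 0.93 ± 0.20, and it passed it without RA 54 h replicate 1 (1.06) or without untreated replicate 2 or 3 (both above 1 as well). At 18 h Pax7 (1.62 ± 0.37) lost its call without RA replicate 3 (adjusted p = 0.0221) or untreated replicate 3 (adjusted p = 0.0182).

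Msx1 and Msx2 were higher with RA, while no rise over time was called for them in untreated organoids. Untreated Msx1 was 3.97 ± 0.41 CPM (SD, n = 3) at day 2 and lay between 0.255 and 2.13 CPM in every untreated library from 18 h on. With RA it had 13.7, 11.7 and 13 CPM at 42 h and 20.1, 19.5 and 20.2 CPM at 78 h, against 0.746, 1.37 and 1.44 CPM and 0.863, 1.28 and 1.03 CPM without RA. These were log2 fold changes of 3.40 ± 0.19 at 42 h (edgeR adjusted p = 2.24e-07) and 4.24 ± 0.13 at 78 h (edgeR adjusted p = 1.53e-09), and that of 66 h was 4.43 ± 0.18, the highest of Msx1. RA 54 h replicate 1 had 11.2 CPM where the other replicates had 25.2 and 27.7 CPM. Msx2 had 1.17, 0.908 and 1.04 CPM in untreated and 2.65, 2.27 and 3 CPM in RA-treated organoids at 18 h, and 1.15, 1.46 and 1 CPM against 6.81, 6.35 and 6.41 CPM at 78 h. Its log2 fold changes were 1.35 ± 0.21 at 18 h and 2.45 ± 0.17 at 78 h (edgeR adjusted p = 1.63e-04 and 5.58e-07). Both genes were called raised at all 6 times from 18 h on, and untreated Msx2 stayed between 0.715 and 1.78 CPM in every library from 8 h on. The RA effect on Msx1 grew by 2.08 ± 0.29 from 18 to 42 h (edgeR adjusted p = 7.09e-05), whereas that on Msx2 differed by 0.50 ± 0.29, which did not pass (adjusted p = 0.224).

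Msx3, the member of the family confined to the neural tube, rose in both arms like the Pax genes. Day 2 libraries had 0.124, 0.15 and 0.0415 CPM, at the floor of detection. At 42 h untreated libraries had 1.06, 1.45 and 1.19 CPM and RA-treated libraries 5.64, 4.35 and 6.06 CPM. At 78 h the values were 6.26, 6.13 and 5.88 CPM against 23.5, 21.3 and 20.6 CPM. The log2 fold change was 2.10 ± 0.21 at 42 h and 1.85 ± 0.09 at 78 h (edgeR adjusted p = 1.30e-05 and 4.47e-08), and its change between these times, -0.26 ± 0.20, did not pass (adjusted p = 0.4). Untreated Msx3 was still more than 1 log2 unit below the treated level at 78 h.

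Within the Msx family the composition shifted in both arms, measured as CPM per kb of merged exon so that genes can be compared. At day 2 Msx1 made up 73.7% ± 6.54 (SD, n = 3) of the family's summed level of 1.74 CPM per kb, and Msx3 2.5% ± 1.25. At 78 h the untreated sum was 3.29 ± 0.16 CPM per kb, of which Msx3 held 78.6% ± 2.96 and Msx1 10.3% ± 1.75. The RA-treated sum was 17.7 ± 0.74 CPM per kb, of which Msx3 held 52.3% ± 1.52 and Msx1 36.5% ± 1.44, while the share of Msx2 was 11.1% ± 1.59 without and 11.3% ± 0.0896 with RA. The untreated and treated shares of Msx1 and Msx3 did not overlap between libraries, and those of Msx2 did.

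**Figure D3:**
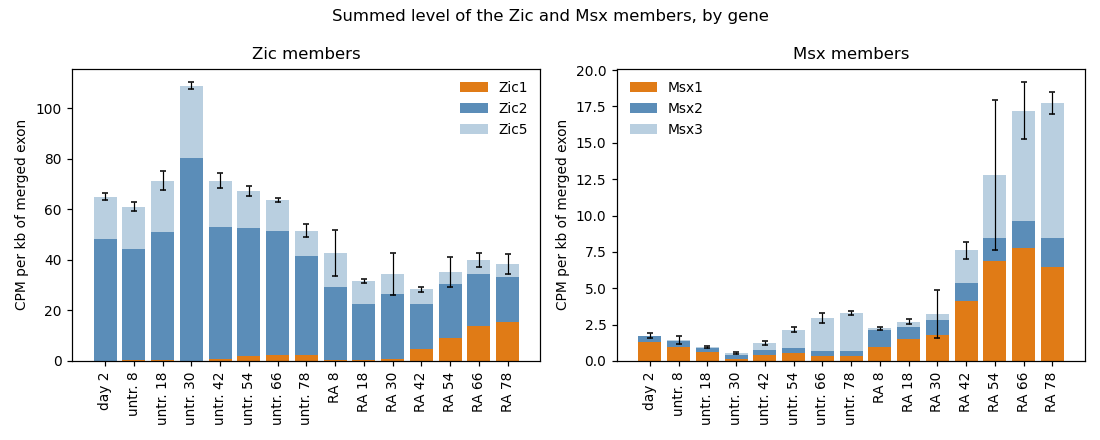
Summed level of the 3 Zic and the 3 Msx genes in each cell population, in CPM per kb of merged exon, stacked by gene (bars, mean of 3 libraries; error bars, SD of the sum). With RA the Zic sum is lower at every time and Zic1 rises to 40.6% of it at 78 h, and the Msx sum reaches 17.7 against 3.29 CPM per kb.

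Zic1 rose and Zic2 and Zic5 fell with RA, so that members of 1 family moved in opposite directions. Zic1 had 0.746, 0.55 and 1.04 CPM at day 2. At 18 h it had 1.4, 1.57 and 1.04 CPM without and 2.95, 2.35 and 2.74 CPM with RA, a log2 fold change of 1.04 ± 0.22 (edgeR adjusted p = 0.00148), just past the threshold and not called without untreated replicate 3 (0.85) or RA replicate 1 (0.96), nor in 1 fit of all 45 libraries (adjusted p = 0.164). At 42 h it had 4.28, 6.58 and 4.36 CPM against 28.4, 27 and 25.4 CPM, and at 78 h 13.7, 13.2 and 10.9 CPM against 95.3, 82.8 and 86.5 CPM. The log2 fold changes were 2.39 ± 0.14 and 2.83 ± 0.09 (edgeR adjusted p = 3.00e-07 and 2.24e-09). The RA effect on Zic1 grew by 1.36 ± 0.27 from 18 to 42 h (edgeR adjusted p = 0.00139), a call that was lost in the fit of all 45 libraries (adjusted p = 0.225). In untreated organoids Zic1 was raised on the same steps as Pax3, Pax7 and Msx3, and its mean stayed at 11.7 to 13.3 CPM from 54 h on.

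Zic2 and Zic5 were abundant before treatment. Day 2 libraries had 137, 136 and 143 CPM of Zic2 and 81.6, 80.7 and 81.6 CPM of Zic5. At 18 h untreated libraries had 146, 136 and 157 CPM of Zic2 and RA-treated libraries 60.4, 64.3 and 66.5 CPM, a log2 fold change of -1.19 ± 0.06 (edgeR adjusted p = 3.36e-09). Zic5 had 98.3, 99 and 101 CPM without and 45.8, 44.9 and 43.2 CPM with RA, a log2 fold change of -1.15 ± 0.05 (edgeR adjusted p = 1.53e-09). The replicates of an arm differed by far less than the arms did. By 42 h Zic2 was at 49.9, 54.4 and 51.1 CPM with RA against 149, 144 and 159 CPM, and Zic5 at 26, 27.4 and 28.1 CPM against 93.8, 83.6 and 88.9 CPM, log2 fold changes of -1.55 ± 0.06 and -1.72 ± 0.07 (edgeR adjusted p = 1.89e-08 and 1.65e-08).

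After 42 h the gap narrowed for Zic5. Untreated Zic5 was at 49, 51.4 and 44.9 CPM at 78 h, and RA-treated Zic5 at 30, 22.2 and 20.6 CPM. The difference was -0.98 ± 0.12, just short of the fold threshold at an edgeR adjusted p of 4.88e-05, and it passed without RA 78 h replicate 1 (-1.16) or without untreated 78 h replicate 3 (-1.05). The change of the RA effect from 42 to 78 h was 0.72 ± 0.15 for Zic5 (edgeR adjusted p = 0.00237, but 0.0486 in the fit of all 45 libraries) and 0.40 ± 0.10 for Zic2, which did not pass (adjusted p = 0.0108). Zic2 was still lower with RA at 78 h, with 56.7, 52.5 and 45 CPM against 106, 119 and 116 CPM (-1.13 ± 0.08, edgeR adjusted p = 5.44e-07). Zic2 was called lowered at 6 of the 7 times and Zic5 at 5.

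The summed level of the Zic genes was lower with RA, while its composition turned towards Zic1. At day 2 the sum was 65 ± 1.33 CPM per kb (SD, n = 3), with 74.2% from Zic2, 25.6% from Zic5 and 0.209% from Zic1. At 42 h it was 71.3 ± 2.97 CPM per kb in untreated and 28.3 ± 0.85 CPM per kb in RA-treated organoids, and the share of Zic1 was 1.26% ± 0.376 and 16.7% ± 1.15. At 78 h the sum was 51.6 ± 2.53 and 38.3 ± 3.88 CPM per kb and the share of Zic1 4.3% ± 0.599 and 40.6% ± 2.47, with no overlap between the libraries of the arms. With RA, Zic2 and Zic1 were the highest of the 9 genes per kb at 78 h, with 17.8 ± 2.07 and 15.5 ± 1.13 CPM per kb, and their libraries overlapped. Without RA, Zic2 led with 39.5 ± 2.47 CPM per kb, ahead of Zic5 with 9.9 ± 0.67 CPM per kb, Pax7 and Pax3 followed at 3.66 ± 0.24 and 3.6 ± 0.45 CPM per kb with overlapping libraries, and Zic1 came after Msx3 with 2.21 ± 0.26 CPM per kb.

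Lmx1a, the roof plate factor, was the lowest of the 9 genes per kb at 78 h in both arms, and a rise over time was called with RA and not without it. Day 2 libraries had 0.622, 0.4 and 0.291 CPM. At 42 h it had 0.275, 0.609 and 0.216 CPM without and 3.26, 3.09 and 3.26 CPM with RA, a log2 fold change of 3.11 ± 0.32 (edgeR adjusted p = 1.72e-05). At 78 h it had 0.252, 0.0297 and 0.223 CPM against 2.69, 2.35 and 1.68 CPM (3.76 ± 0.42, edgeR adjusted p = 2.58e-05), where the lowest untreated library held 1 count. Its difference at 18 h, 0.98 ± 0.38, was not called (edgeR adjusted p = 0.0439), and it was called at the 5 later times. The RA effect grew by 2.15 ± 0.53 from 18 to 42 h (edgeR adjusted p = 0.00698), a call that was lost in 8 of the 12 fits without 1 library and in the fit of all 45 libraries (adjusted p = 0.0199).

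At 8 h, the earliest time after treatment, none of the 8 genes tested was called by edgeR (all genes, 1.26% raised and 0.537% lowered) or by DESeq2, and 2 were higher and 2 lower at an unadjusted p under 0.05. The libraries disagreed: RA 8 h replicates 1, 2 and 3 had 2.1, 1.95 and 0.276 CPM of Pax3 and 2.77, 2.49 and 0.221 CPM of Zic1, against 0.494, 0.398 and 0.529 CPM and 0.933, 0.944 and 1.4 CPM without RA. Replicate 3, the one with low Y-chromosome genes, also had 5.42 CPM of Msx2 and 90.3 CPM of Zic5 where the other RA replicates had 2.89 and 2.63 CPM and 55.9 and 53.6 CPM. Without it, Pax3 (2.07), Zic1 (1.25) and Msx2 (1.06) were called raised, with edgeR adjusted p-values of 1.45e-04, 0.00171 and 0.00858. Zic2 was already lower in each RA-treated library, with 77.9, 71.6 and 99.7 CPM against 127, 124 and 130 CPM (-0.60 ± 0.13, edgeR adjusted p = 0.029, not called). Lmx1a, higher with RA from 18 h on, was also lower in each RA-treated library at 8 h. It had 0.335, 0.363 and 0.111 CPM against 0.658, 0.547 and 0.577 CPM (-1.08 ± 0.45, edgeR adjusted p = 0.161, not called). These libraries held 2 to 12 counts of Lmx1a. The part of the low Y-chromosome genes in these values was not tested.

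At 30 h the untreated libraries, all with low Y-chromosome genes, stood off the course of the arm in several genes. Zic2 was at 231, 236 and 226 CPM and Zic5 at 145, 132 and 142 CPM, above every other untreated library. Zic1, with 0.226, 0.305 and 0.255 CPM, and Msx1, with 0.451, 0.549 and 0.255 CPM, were below every other untreated library. Among the RA-treated libraries, replicates 1, 2 and 3 had 1.01, 10.4 and 0.812 CPM of Zic1 and 49.1, 21.1 and 52 CPM of Zic5, with replicate 2, the one with Y-chromosome genes in the higher range, apart from the others. Pax3, Msx1, Msx2 and Lmx1a were called raised at 30 h and Zic2 and Zic5 lowered, but none of the 4 raised calls held without any 1 of the untreated replicates (adjusted p 0.0183 to 0.0402), and the lowered call of Zic5 was also lost (0.0204 to 0.0232). Without RA replicate 2, Pax7 (2.03) and Zic1 (1.78) were called as well. With RA replicate 1 alone against the untreated replicates, all of the earlier series, the 9 genes kept their direction, from 0.80 for Msx3 to 3.72 for Lmx1a and with -1.49 for Zic2 and -1.52 for Zic5. Lmx1a had 6 counts in all without RA and 204 with it, a ratio of 22.0 with an exact 95% counting interval of 9.95 to 60.8. Of the 204 counts 125 were from RA replicate 2 (3.83 CPM, against 1.34 and 1.14 CPM in replicates 1 and 3), and without it the ratio was 12.9 (5.67 to 36.2). The part of the low Y-chromosome genes in the 30 h values was not tested either.

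The steps over time within each arm were tested next. In untreated organoids from day 2 to 18 h, Msx1 was lowered (-1.08 ± 0.20, edgeR adjusted p = 5.83e-04). None of the 7 genes tested was raised by edgeR or DESeq2, with 2 higher at an unadjusted p under 0.05 (all genes, 3.2% raised and 1.35% lowered). Pax3 and Msx3 were not tested, since the filter on low counts left them out of this step. The call of Msx1 was lost without day 2 replicate 1 (-0.99) or untreated 18 h replicate 1 (-0.93), and in the fit of all 45 libraries (adjusted p = 0.0144). Day 2 replicate 3, of the later library series, decided no call of this step. From 18 to 42 h, Pax3, Pax7, Msx3 and Zic1 were raised (3.43, 1.66, 3.20 and 1.99), 4 of 9 genes where 4.92% of all genes were raised and 3.96% lowered. From 42 to 78 h the same 4 were raised (3.26, 4.28, 2.27 and 1.28) of 8 tested, where 5.31% of all genes were raised and 2.97% lowered, and in the fit of all 45 libraries Zic1 lost this call (adjusted p = 0.016). Msx1, Msx2 and Lmx1a were raised on no step tested in untreated organoids, with log2 fold changes between -1.08 and 0.15.

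With RA, Pax3, Msx3 and Zic1 were raised from day 2 to 18 h, and Zic2 was lowered (-1.13 ± 0.06, edgeR adjusted p = 3.30e-11). These were 3 and 1 of 9 genes, where 14.5% and 5.71% of all genes were raised and lowered. Without RA, Pax3 and Msx3 were not tested on this step, and Zic1 was not called (0.74 ± 0.32). Day 2 libraries held only 1 to 3 counts of Pax3 and Msx3, and the ratios of RA 18 h to day 2 were 15.7 (exact 95% counting interval 6.95 to 43.8) and 8.6 (3.93 to 22.3). Pax7 (1.01 ± 0.42) was not called on this step, and was called without day 2 replicate 3 (1.55), while Zic1 lost its call in the fit of all 45 libraries (adjusted p = 0.0254). With library totals in place of TMM every log2 fold change of this step was higher by 0.20, the call of Zic2 was lost (-0.94), and Msx2 (1.15) and Lmx1a (1.30) were raised. From 18 to 42 h, Pax3, Pax7, Msx1, Msx3, Zic1 and Lmx1a were raised (3.01, 2.72, 1.42, 2.59, 3.33 and 1.74), 6 of 9 where 6.07% of all genes were raised and 8.07% lowered. From 42 to 78 h, Pax3, Pax7, Msx3 and Zic1 were raised (2.12, 1.81, 1.99 and 1.68), where 4.62% of all genes were raised and 2.63% lowered. Msx1 (0.61 ± 0.08) and Msx2 (0.68 ± 0.13) did not reach the fold threshold on this last step, and Lmx1a (-0.54 ± 0.20) was not called. The RA effect differed between 18 and 42 h for 5 genes (Msx1, Zic1, Zic2, Zic5 and Lmx1a) where 16.2% of all genes differed, and between 42 and 78 h for 3 (Pax3, Pax7 and Zic5) where 12.6% did. Of these 8, those of Msx1 and Pax7 also passed in the fit of all 45 libraries.

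Across the 15 population means, as log2(CPM + 1), Pax3 and Pax7 were correlated at r = 0.99, Msx3 with Pax3 and with Zic1 at 0.98, Msx1 with Msx2 and with Lmx1a at 0.93, and Zic2 with Zic5 at 0.93. Zic2 and Msx2 had r = -0.93. The population means share arms and times, and the values are descriptions. Among 14314 genes with a mean of at least 1 CPM, the nearest to both Pax3 and Pax7 was Pou3f2, a POU factor of neural cells (r = 0.987 and 0.994). The nearest to Msx3 was Tshz2 (0.987), to Zic1 Kif26b (0.983), to Zic2 Slc35d3 (0.977), to Zic5 Gm37310 (0.989) and to Lmx1a Sgpp2 (0.981). Foxa2, a factor of the floor plate and endoderm, was the gene next after Stard8 for Msx1 (0.971 and 0.975), and Dmrt3 the nearest to Msx2 (0.972). Rxrg, a retinoid X receptor, was among the 3 nearest to Zic5 (0.98).

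The counts in the lists that follow stand beside the shares of all genes tested, which were 8.17% (raised) and 2.76% (lowered) for 18 h, 7.49% and 4.96% for 42 h, then 7.66% and 4.03% for 78 h. Of 18 other genes of the dorsal neural tube and roof plate, 16 were tested at 78 h, of which 11 were raised and 2 lowered, with a median log2 fold change of 2.12. At 42 h 10 were raised and 3 lowered of 15, and at 18 h 5 were raised of 10. The roof plate signals Wnt1 and Wnt3a had 0.234 ± 0.17 and 0.77 ± 0.32 CPM (SD, n = 3) without and 7.29 ± 0.62 and 7.19 ± 0.52 CPM with RA at 78 h (log2 fold changes 4.94 ± 0.31 and 3.22 ± 0.23). Gdf7, another roof plate signal, had 0.743 ± 0.04 against 0.767 ± 0.215 CPM at 78 h (0.06 ± 0.28, not called). It was called raised at 18 h alone. Gsx1, a gene of dorsal progenitors, was called lowered at 3 of the 7 times, and had 0.929 against 0.77 CPM at 78 h (not called). The BMP ligands Bmp4 (3.7 ± 0.47 against 13.5 ± 3.56 CPM) and Bmp7 (15.6 ± 0.63 against 26.7 ± 1.51 CPM) were called raised at 4 and 5 of the 7 times, and Bmp7 was not called at 78 h (0.79 ± 0.07). Lmx1b, the paralog of Lmx1a, was raised at 5 times and had 5.09 ± 0.77 against 13.8 ± 2 CPM at 78 h. Among the proneural factors, Neurog1 had 1.64 ± 0.14 against 15.6 ± 3.32 CPM and Neurog2 0.78 ± 0.06 against 8.39 ± 1.52 CPM, and Dbx1, of the progenitors at the boundary with the ventral side, 21.2 ± 2.45 against 49 ± 14.2 CPM.

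Zic4, the neighbour of Zic1, had 0.731 ± 0.04 CPM without and 9.14 ± 1.47 CPM with RA at 78 h (3.66 ± 0.18, edgeR adjusted p = 4.34e-08). Olig3, a factor of the most dorsal progenitors, changed sides, called raised at 2 times and lowered at 4, with 5.52 against 13.2 CPM at 18 h and 34.5 against 15.2 CPM at 78 h.

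**Figure D4:**
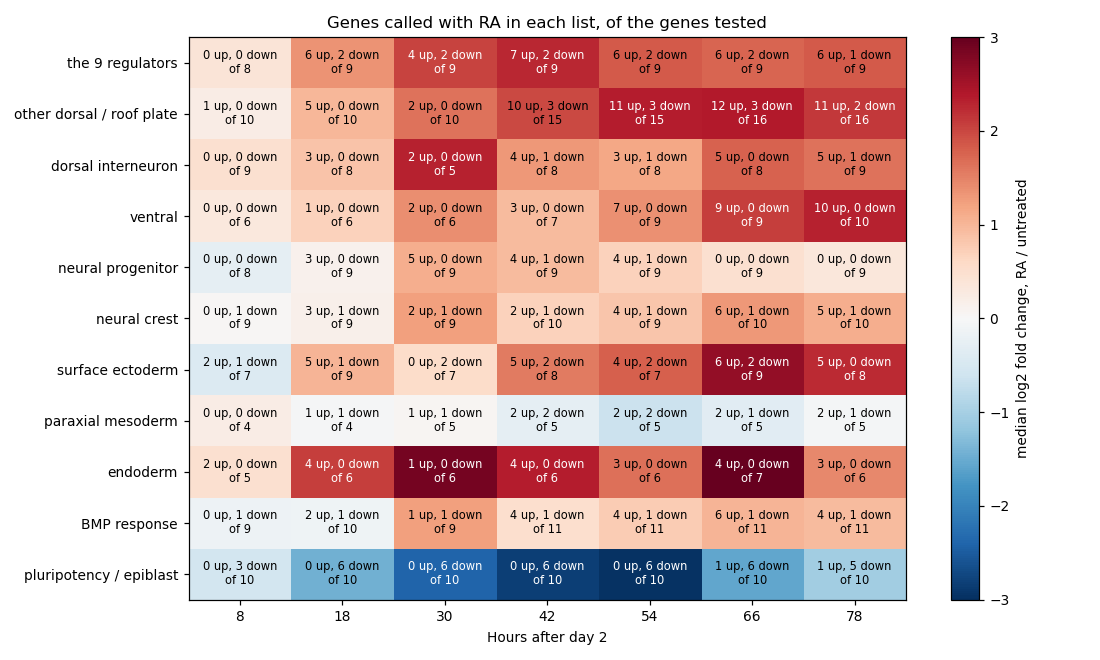
Median log2 fold change of RA-treated over untreated organoids (colour) in each gene list at each time, with the number of genes called raised and lowered of those tested. The 9 regulators and the other dorsal genes have medians above 1 from 42 h on, as do the dorsal interneuron, surface ectoderm and endoderm lists. The ventral list reaches 10 raised of 10 tested at 78 h.

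Ventral genes were also higher with than without RA in the same libraries. Of 10 ventral genes, 1 of 6 tested was raised at 18 h, 3 of 7 at 42 h and 10 of 10 at 78 h (median 2.32). Ptch1 and Gli1, targets of Shh signalling, had 128 ± 7.03 against 286 ± 27.1 CPM and 8.81 ± 0.83 against 45.4 ± 3.94 CPM at 78 h, and Nkx2-9 1.24 against 6.93 CPM. At day 2 Ptch1, Gli1 and Nkx2-9 had 258 ± 8.17, 46.6 ± 2.57 and 7.3 ± 0.07 CPM, near their levels with RA at 78 h. Shh and Foxa2 had 0.0443 and 0.714 CPM at day 2, and 0.103 against 7.69 CPM and 0.48 against 11.5 CPM at 78 h. The summed level of the ventral list was 143 to 154 CPM in the untreated and 347 to 428 CPM in the RA-treated libraries at 78 h. It was 306 to 320 CPM at day 2, and most of it was Ptch1. Dorsal interneuron genes were raised in 5 and lowered in 1 of 9 tested at 78 h (median 1.64), with Lhx1 at 0.559 against 6.92 CPM, Pou4f1 at 6.4 against 11.7 CPM (0.88, not called), and Phox2a at 4.58 against 1.8 CPM. Of 11 genes of BMP signalling, 4 were raised and 1 lowered both at 42 h and at 78 h (medians 0.51 and 0.96). The BMP target Id3 had 26.7 against 155 CPM and Id2 50.7 against 71.2 CPM, while Fst, an inhibitor of activins and BMPs, had 80.8 against 10.3 CPM.

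Genes of other tissues in which members are also transcribed moved too, and their part in the results was not tested. Msx1 and Msx2 are also genes of the surface ectoderm, whose list had 5 raised of 8 tested at 78 h (median 2.23) and a summed level of 178 to 207 CPM without and 598 to 642 CPM with RA. With RA most of that sum came from Krt8, a keratin of simple epithelia, with 18.1 ± 1.46 against 219 ± 5.7 CPM, and its partner Krt18, with 21.2 ± 2.91 against 207 ± 5.96 CPM. Without RA its largest part was Epcam, with 110 ± 8.21 against 65.3 ± 14.9 CPM, and Grhl2 had 18 ± 2.61 against 11.5 ± 2.23 CPM. Besides the keratins, the genes raised at 78 h were Tfap2c (15 ± 1.48 against 74.6 ± 3.93 CPM), Dlx3 (2.22 ± 0.33 against 26.1 ± 2.75 CPM) and Trp63 (0.218 against 0.962 CPM). At 42 h 5 genes of that list were raised and 2 lowered of 8 tested (median 1.55), with sums of 306 to 358 CPM without and 269 to 292 CPM with RA. Krt8 was then at 17.4 against 63.6 CPM and Epcam at 219 against 73.1 CPM. Pax3, Zic1 and Msx1 are also genes of the neural crest, whose list had 5 raised and 1 lowered of 10 at 78 h (median 1.09) and sums of 98.1 to 104 and 213 to 245 CPM, most of it Ednrb, an endothelin receptor, with 59.9 ± 2.45 against 160 ± 20.7 CPM. Foxd3, a gene of crest and epiblast, was lowered at all 7 times and had 5.13 against 1.7 CPM at 78 h, and Ets1 had 9.7 against 15.5 CPM. Besides Ednrb, those raised at 78 h were Tfap2a (0.809 against 4.96 CPM), Tfap2b (3.02 against 9.65 CPM), Ngfr (6.41 against 14.7 CPM) and Snai2 (0.756 against 1.53 CPM). Sox10, which marks migrating crest, had 0.372 and 0.822 CPM and was not called at 78 h, but was called raised at 18 h (2.19 ± 0.38). Sox9 (9.49 against 14.1 CPM) and Twist1 (6.26 against 5.84 CPM) were not called at 78 h.

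Pax3, Pax7 and the Zic genes are also genes of paraxial mesoderm. Of that list 1 gene was raised and 1 lowered of 4 tested at 18 h, and 2 and 2 of 5 at 42 h (medians -0.03 and -0.28). Its sums were 37.5 to 41.6 CPM without and 59.6 to 66.8 CPM with RA at 18 h, and 20.5 to 28.4 against 36.3 to 40 CPM at 42 h. Meox1, a homeobox gene of somites, had 0.437 against 30.9 CPM at 18 h and 0.685 against 29.2 CPM at 42 h, and was raised at both times (6.09 ± 0.12 and 5.40 ± 0.16). Of the list 2 were raised and 1 lowered of 5 tested at 78 h (median -0.07), with sums of 10.7 to 12 CPM without and 11.5 to 14.2 CPM with RA. T had 3.45 against 0.732 CPM, Meox1 1.15 against 5.76 CPM and Tcf15 5.46 against 5.11 CPM, and the muscle factor Myf5 was listed at 0 in the untreated libraries and had 0.0117 CPM with RA. The endoderm list had 3 raised of 6 tested (median 1.45), with Foxa1 at 0.462 against 14.8 CPM, Cxcr4 at 35.2 against 42.9 CPM and Hhex at 3.01 against 1.83 CPM. Pluripotency and epiblast genes, which share their early high level with Zic2 and Zic5, were lowered in 6 of 10 genes at each time from 18 to 66 h and in 5 at 78 h, and Klf4 was raised at 66 and 78 h. Their summed level was 4230 to 4510 CPM at day 2, 2410 to 2790 CPM in untreated and 380 to 507 CPM in RA-treated libraries at 42 h. Among them Dnmt3b had 784 against 110 CPM, Pou5f1 283 against 94.7 CPM and Utf1 60.1 against 40.7 CPM at 78 h.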

How the data were processed

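RNA of organoids was sequenced as 75 bp single-end poly(A) libraries. The deposited values are raw counts, 1 per gene and library, with neither normalization nor pooling of replicates. They are the output of featureCounts (Subread v1.6.2) on STAR alignments, for which the reference was GRCm38 and its genes those of Ensembl release 94. Before alignment, Trim Galore v0.5.0 had been used for trimming and Bowtie 2 v2.3.4.1 to discard reads of abundant sequences. Columns were matched to samples by the library number in the titles.

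Every comparison had its own fit of 6 libraries (12 for an interaction) with edgeR 4.0.16 in R 4.3.3, after TMM normalization and filterByExpr (minimum count 10, total 15), by glmQLFit and glmQLFTest. Adjusted p-values follow Benjamini and Hochberg over all genes tested. Levels in CPM were normalized by TMM over all 45 libraries. On simulated data with 200 changed genes, the test recovered 100% of log2 changes of 2 and 96.9% of 1.5 among 16214 genes at 18 h, with 0 false calls. For the interaction of 18 and 42 h it recovered 97% of log2 changes of 2 among 17062 genes, with 4 false calls. Smaller changes of the RA effect were not simulated, so recovery of the smaller ones called here was not measured. The changed genes were drawn from those with a mean above 1 CPM. Recovery was therefore not measured at the level of Pax3, Pax7, Msx3 and Lmx1a at 18 h, whose means over both arms were lower. Replicate libraries differed beyond sampling noise in all 45 pairs (chi-square per gene, lowest mean 1.97). Equal replicate numbers deviated together with r above 0.1 in every pair only for RA against untreated at 66 h (r from 0.21 to 0.52), where the block changed no call. Every pair was weakly positive also at 30 h (0.09 to 0.22), 54 h (0.04 to 0.1) and 78 h (0.02 to 0.35). At 30 h the block cost Pax3 its call. Counting intervals cover counting error only, since reads carried no molecular identifiers.

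The members, the lists and the tests were chosen with earlier results of these data known. All members are named, and of other lists the 3 genes with the highest mean CPM, the dorsal genes called at 4 or more of the 7 times, and for each member the genes nearest in course. A few genes that this rule names are left out of the text. Other genes named in the text were chosen after their values were seen. Alternatives were RLE factors, library totals, DESeq2 1.42.0, a fit of all 45 libraries, other count filters, a looser threshold, the replicate block, the earlier library series alone at 30 h, and each library left out.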

Additional observations from a re-analysis of the deposited data

Results flagged for a closer look

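Differences in the RA effect between times passed the interaction test for 8 combinations of gene and interval. From 18 to 42 h the log2 effect of RA changed by 2.08 for Msx1, 1.36 for Zic1, 2.15 for Lmx1a, -0.34 for Zic2 and -0.55 for Zic5. From 42 to 78 h it changed by -1.12 for Pax3, -2.45 for Pax7 and 0.72 for Zic5. The effect on Zic5 thus moved down and then up, and the libraries of 78 h are all of the later series. The smallest of these, that of Zic2, was lost in 9 of the 12 fits without 1 library (adjusted p up to 0.0304). In 1 fit of all 45 libraries 6 of the 8 did not pass, with adjusted p-values from 18 to 42 h of 0.225 for Zic1, 0.142 for Zic2, 0.137 for Zic5 and 0.0199 for Lmx1a, and from 42 to 78 h of 0.0533 for Pax3 and 0.0486 for Zic5.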

How the results depend on the processing

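Of 1025 fold changes of members recomputed under the alternatives that keep all libraries, 976 kept direction and side of the threshold, 34 became called, 14 lost the call and 1 turned, that of Msx1 at 8 h (-0.024 with the replicate block). Of 894 with 1 library left out, 821 stayed, 18 became called, 45 lost the call and 10 turned. The causes of these moves were not tested. Counts of members called within 1.5 times of the reported count were 203 of 224 and, with 1 library left out, 162 of 180. With 1 fit of all 45 libraries, 1 member was raised at 8 h, 0 were lowered from day 2 to 18 h without RA, and 1 had a different effect in each interval. With at least 10 counts in every library, which leaves low genes untested, the counts raised were 3 at 18 h with RA against untreated, 1 at 30 h, 1 from 18 to 42 h without RA and 1 from day 2 to 18 h with RA. At an adjusted p under 0.05 with no minimum fold, 1 was lowered at 8 h and 2 at 78 h, 1 was raised from day 2 to 18 h without RA, 2 were lowered from 42 to 78 h without RA, 6 were raised and 2 lowered from day 2 to 18 h with RA, 2 were lowered from 18 to 42 h with RA, and 5 effects differed between 42 and 78 h. With library totals, 5 were raised and 0 lowered from day 2 to 18 h with RA. DESeq2 and no filter each gave 5 different effects between 42 and 78 h. With the replicate block, 3 effects differed between 18 and 42 h, where Zic2 (adjusted p = 0.01) and Lmx1a (0.0162) were lost, Pax3 at 30 h was lost (0.0136), and no other call of a member was lost. By their deviations, the replicate numbers paired samples with r above 0.1 in every pair at 66 h alone.

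Leaving out 1 library gave 0 to 3 raised at 8 h, 0 to 6 raised and 1 to 2 lowered at 30 h, 1 to 2 lowered at 78 h, 0 to 1 lowered from day 2 to 18 h without RA, and 3 to 5 effects that differed between 18 and 42 h. The fold changes that turned ranged from -0.212 to 0.276 for Msx1 at 8 h, -0.162 to 0.509 for Lmx1a from day 2 to 18 h without RA, -0.038 to 0.265 and -0.067 to 0.247 for Msx2 from 18 to 42 h and from 42 to 78 h without RA, -0.117 to 0.039 for Zic2 from 42 to 78 h with RA, and -0.653 to 0.07 for Pax3 in the difference of effects between 18 and 42 h. None of these was called. Depth limits Pax3, Msx3 and Lmx1a in their low groups, where libraries hold 1 to 3 counts.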
